A study of Mus musculus with 10 samples.

Results

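The genes described here are the major histocompatibility complex (MHC) genes of the mouse, chosen as the protein-coding rows of the deposited table whose symbol starts with H2-, together with B2m, Cd74, Ciita, Nlrc5, Tap1, Tap2 and Tapbp. They number 36 of 26863 genes in the table: 19 class I heavy chains, 9 class II chains, 4 class I partners (B2m, Tap1, Tap2, Tapbp), the class II partner Cd74, the regulators Ciita and Nlrc5, and H2-Ke6, which carries the prefix but encodes no MHC molecule. RNA with a polyA tail was sequenced from the interscapular depot of brown adipose tissue, a fat that makes heat, of PnocCre mice (5 libraries) and Wildtype mice (5 libraries). Both groups had received CNO (clozapine-N-oxide), which acts on designer receptors, and the tissue was taken 1 h later. Per the series' description, the PNOC neurons of the medial preoptic area were activated, but the sources used here name neither the receptor, nor whether Wildtype mice carried it, nor age, sex or strain. No label says outright that each library is a separate animal, so p-values here cover the spread between libraries, which may be technical. Of the 36 genes, 29 had a mean of at least 10 normalised counts over the 10 libraries and were tested.

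MHC class I molecules consist of a polymorphic heavy chain and the light chain beta-2-microglobulin, and show peptides from inside the cell on nearly all nucleated cells. Peptides reach them through the transporter TAP and the bridging protein tapasin, and the regulator NLRC5 with interferon signalling drives their genes. Class II molecules consist of an alpha and a beta chain, are loaded with the help of the invariant chain CD74 and the H2-DM and H2-O heterodimers, depend on the regulator CIITA, and are found mainly on B cells, dendritic cells and macrophages, with lower or inducible expression elsewhere.

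The libraries held 21304238 to 29171787 reads recovered from the deposited values, and the 36 genes took 0.173% to 0.404% of the normalised counts of a PnocCre library and 0.177% to 0.207% of a Wildtype library. The brown adipocyte markers were abundant in all 10 libraries, with 8 markers summing to 134885 to 174933 normalised counts in PnocCre and 177841 to 228156 in Wildtype. PnocCre replicate 2 stood apart. Its 8 B cell markers summed to 3608 normalised counts, where the other PnocCre libraries had 68.1 to 273 and Wildtype 57.1 to 142. Its 8 T cell markers summed to 3044, where the other PnocCre libraries had 37.6 to 82.1 and Wildtype 34.9 to 99.0. Each of these 16 markers was highest there, and Ccr7, a chemokine receptor of lymphocytes and migrating dendritic cells, had 388 normalised counts against at most 15.8 elsewhere. The 8 skeletal muscle markers summed to 4579 to 166714 in PnocCre and 40.7 to 20901 in Wildtype, and were highest in PnocCre replicates 4 and 5. In bulk tissue, more cells of a type and more RNA per cell cannot be told apart.

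The abundant class I genes B2m, H2-K1 and H2-D1 had higher values in at least 4 of the 5 PnocCre libraries than in any Wildtype library, and class II genes had their highest values in PnocCre replicate 2. Of the 29 tested members, 27 had a positive log2 fold change (PnocCre over Wildtype) and 2 a negative one, with a median of 0.54, while over all 15301 tested genes 49.3% were positive and the median was -0.01. With limma on log2(normalised count + 1) and Benjamini-Hochberg adjustment, 0 of 29 members passed an adjusted p of 0.05, as did 0 of 15301 genes (0.0%). At an unadjusted p under 0.05 there were 9 members on the higher side and 1 on the lower side, where 8.94% and 8.07% of all genes lay, and edgeR's quasi-likelihood test gave 16 and 1, against 11.7% and 5.91%. edgeR called 0 members and 0 genes after adjustment. DESeq2 called B2m and H2-D1, both higher, of the 36 members, against 2.2% of all genes called on the higher side. That share is of the 16733 genes with a DESeq2 adjusted p, which 9 of the 36 members lacked. By role, 12 of 13 class I heavy chains were positive (median 0.44), 4 of 4 class I partners (0.38) and 8 of 8 class II chains (0.61). These medians are descriptions, and H2-Oa passed the filter on low values only through PnocCre replicate 2.

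**Figure D1:**
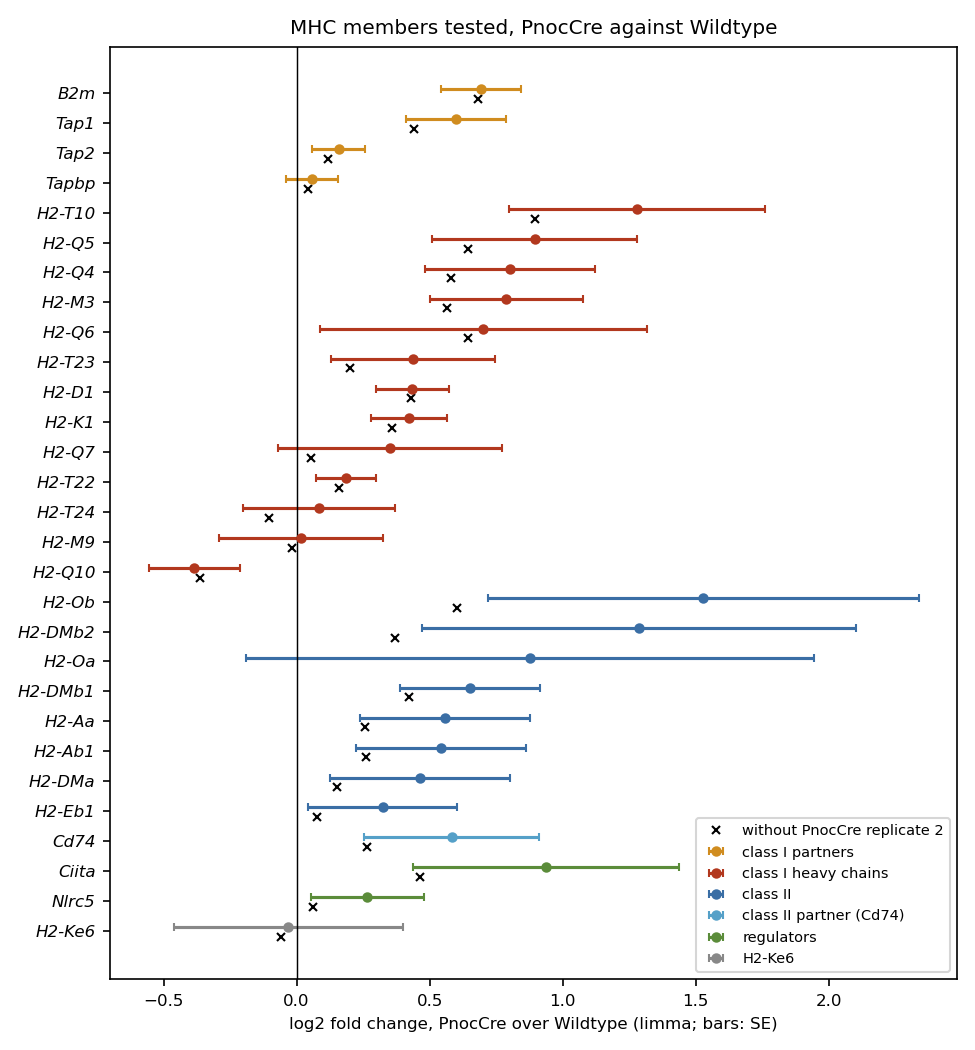
Log2 fold change of each tested MHC member, PnocCre over Wildtype, as points with SE bars from limma (n = 5 libraries each), coloured by role, with crosses for the value without PnocCre replicate 2 where the gene was still tested. Of the 29 points 27 lie right of 0, and the crosses of H2-Ob and H2-DMb2 lie furthest from their points.

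On the class I side, the light chain B2m (ENSMUSG00000060802, chromosome 2, 121978167 to 121983564, GRCm39) had the smallest p of all members. Its 5 PnocCre libraries had 13086, 12384, 12536, 8472 and 14415 normalised counts, against 7268, 7776, 7624, 8459 and 6155 in the 5 Wildtype libraries. The groups did not overlap, although PnocCre replicate 4 lay only just above the highest Wildtype library, and B2m was the 1 tested member of 29 for which this held, against 1.79% of all genes on the higher side. No member lay wholly below Wildtype, against 2.61% of all genes. The mean of B2m was 12179 ± 2221 in PnocCre, against 7456 ± 847 in Wildtype (SD over 5 libraries each), a log2 fold change of 0.69 (SE 0.15, limma adjusted p 0.116, DESeq2 adjusted p 0.00116). DESeq2 called it also without any 1 of the 10 libraries.

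The classical heavy chains H2-K1 and H2-D1, which present peptides to cytotoxic T cells, followed the same libraries. H2-K1 (ENSMUSG00000061232, chromosome 17, 34214991 to 34219321) had 12060, 13564, 11772, 7865 and 12334 normalised counts in PnocCre, against 8664, 9092, 8353, 8339 and 7883 in Wildtype. H2-D1 (ENSMUSG00000073411, chromosome 17, 35481706 to 35486475) had 12920, 13919, 14694, 10060 and 17811 in PnocCre, against 10115, 10321, 10103, 10196 and 9728 in Wildtype. For both genes 4 PnocCre libraries lay above every Wildtype library and PnocCre replicate 4 lay within the Wildtype range of H2-D1 and just below that of H2-K1. The Wildtype values of H2-D1 were tight (10093 ± 221), and those of PnocCre were spread (13881 ± 2812). The log2 fold change was 0.42 for H2-K1 (SE 0.14, limma adjusted p 0.193, DESeq2 adjusted p 0.0559) and 0.44 for H2-D1 (SE 0.14, limma adjusted p 0.179, DESeq2 adjusted p 0.0449). The DESeq2 call of H2-D1 was lost without PnocCre replicate 1, 2, 3 or 5 and without each Wildtype library, and kept without PnocCre replicate 4.

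The promoter windows of these 3 genes are shown because they were the most abundant class I members per length, though not those with the largest log2 fold changes, and carry known control elements of class I genes. They are RefSeq windows of 300 bases, 250 before to 50 after the gene's start, in build GRCm38.p6, which is not the build of the table. Capitals mark matches on either strand to CCAAT (the Y box), an X box core, an interferon-responsive element or its shorter form GAANNGAAA, and 2 forms of a kappa B site, a palindromic and an asymmetric one.
B2m, chr2:122147437-122147736, plus strand: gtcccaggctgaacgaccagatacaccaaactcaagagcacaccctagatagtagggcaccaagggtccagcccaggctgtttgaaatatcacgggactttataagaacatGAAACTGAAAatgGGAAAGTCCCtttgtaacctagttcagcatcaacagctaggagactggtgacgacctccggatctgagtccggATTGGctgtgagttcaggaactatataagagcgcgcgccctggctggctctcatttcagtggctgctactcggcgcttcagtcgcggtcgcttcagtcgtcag
H2-K1, chr17:34000284-34000583, minus strand: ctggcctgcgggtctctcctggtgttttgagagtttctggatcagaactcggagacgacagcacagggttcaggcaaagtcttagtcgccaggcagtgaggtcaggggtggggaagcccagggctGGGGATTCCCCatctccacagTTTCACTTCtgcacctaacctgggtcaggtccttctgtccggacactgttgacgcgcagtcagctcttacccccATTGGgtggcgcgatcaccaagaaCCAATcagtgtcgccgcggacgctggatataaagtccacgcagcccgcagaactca
H2-D1, chr17:35262844-35263143, plus strand: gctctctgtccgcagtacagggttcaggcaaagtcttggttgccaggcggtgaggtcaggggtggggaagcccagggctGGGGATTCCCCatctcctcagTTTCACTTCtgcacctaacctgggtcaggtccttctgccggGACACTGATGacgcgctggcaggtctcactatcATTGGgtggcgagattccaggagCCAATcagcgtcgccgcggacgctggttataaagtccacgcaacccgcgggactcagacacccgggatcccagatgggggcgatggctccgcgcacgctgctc
A promoter window was found for 27 of the 36 members. The palindromic kappa B site lay in the windows of 3 of them, H2-K1, H2-D1 and H2-Q6, and in 10 of all 32851 windows (0.0304%). The asymmetric form lay in the B2m window alone among the members and in 0.411% of all windows. CCAAT lay in the windows of 24 members and in 37.4% of all windows. The interferon-responsive element lay in the windows of 3 members (B2m, H2-T22, H2-T23) and in 3.44% of all, and GAANNGAAA, the form added after the sequences were seen, in those of 8 members and in 7.52% of all. Because GAANNGAAA was added after these windows were seen, its place in H2-K1 and H2-D1 was fixed in advance. The other motifs were searched as known control elements of MHC genes. Their shares among members and over all windows are therefore not a test. A match is a description of the letters and not a sign of binding.

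Among the peptide-loading partners, Tap1 had higher values in PnocCre while Tap2 and Tapbp lay close to Wildtype. Tap1 (chromosome 17, 34406527 to 34416199), 1 of the 2 subunits of the peptide transporter, had 739, 1051, 627, 450 and 659 normalised counts in PnocCre, against 436, 510, 504, 390 and 414 in Wildtype. PnocCre replicate 4 again fell within the Wildtype range and the other 4 lay above it (log2 fold change 0.60, SE 0.19, limma adjusted p 0.177, DESeq2 adjusted p 0.0519). Tap2, the other subunit, had 884, 1016, 866, 759 and 1019 in PnocCre, against 816, 771, 787, 799 and 875 in Wildtype, and the groups overlapped (0.16, SE 0.10, limma adjusted p 0.417). Tapbp, which encodes tapasin, had 3049, 2957, 2935, 2367 and 2921 in PnocCre, against 2928, 2722, 2776, 2466 and 2757 in Wildtype (0.06, SE 0.10, limma adjusted p 0.776). Nlrc5, the class I regulator, had 381, 784, 351, 405 and 398 in PnocCre, against 303, 304, 393, 447 and 412 in Wildtype. Only PnocCre replicate 2 lay above the Wildtype range of Nlrc5, whose log2 fold change was 0.27 (SE 0.21, limma adjusted p 0.519) with that library and 0.06 without it.

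**Figure D2:**
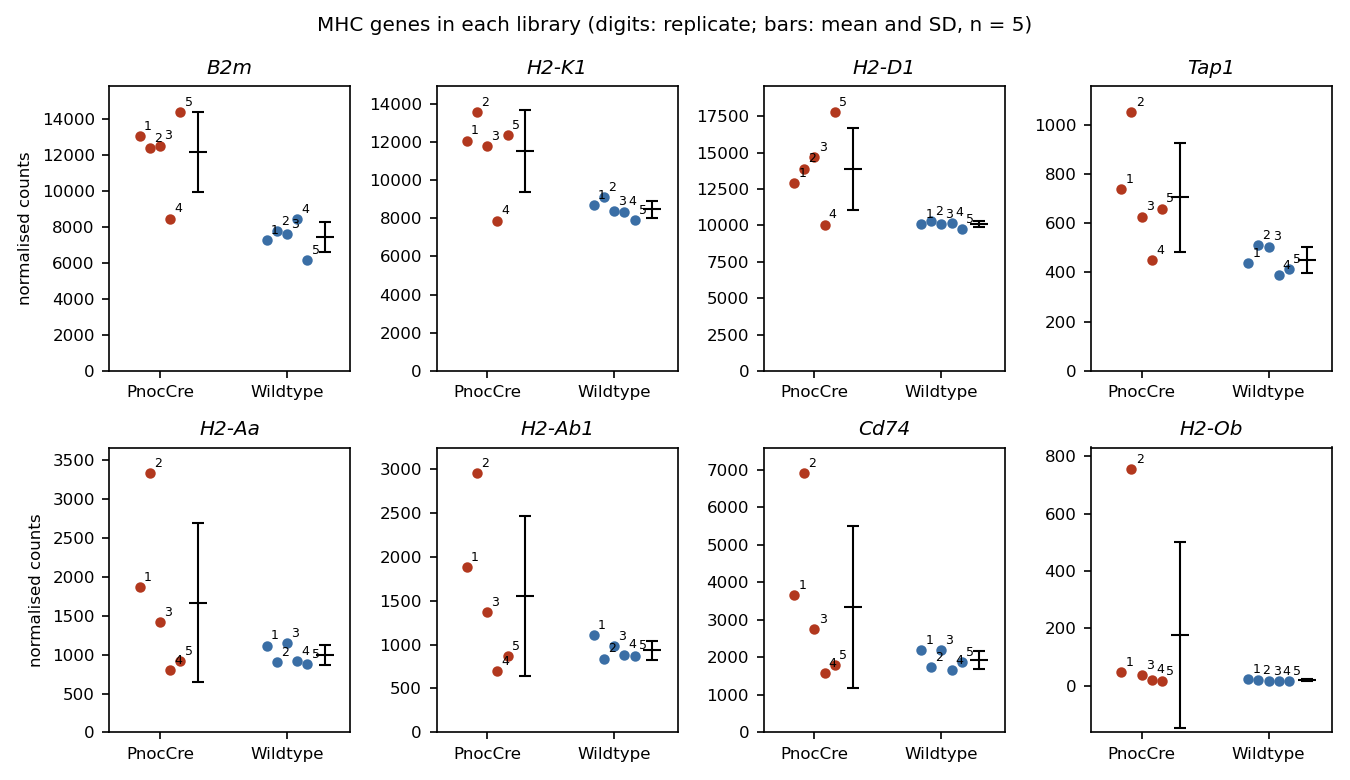
Normalised counts of 8 MHC genes in each library, with the replicate number beside each point and black bars for the mean and SD (n = 5 per group). In the upper row PnocCre replicate 4 lies below the other 4 PnocCre libraries, and in the lower row PnocCre replicate 2 lies above all others.

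The nonclassical class I heavy chains, whose products show few or special peptides or bind natural killer cell receptors, were mostly higher with a wide spread. Their sequences are alike and how shared reads were counted is not stated, so the split of reads among the H2-Q and H2-T genes is uncertain. H2-Q4 (chromosome 17, 35598593 to 35604266) had 1797, 2161, 1026, 525 and 1064 normalised counts in PnocCre, against 776, 676, 706, 782 and 479 in Wildtype (log2 fold change 0.80, SE 0.32, limma adjusted p 0.241). H2-M3, which presents N-formylated bacterial peptides, had 121, 189, 102, 51.8 and 90.1 in PnocCre, against 65.9, 54.9, 48.5, 67.6 and 58.1 in Wildtype (0.79, SE 0.29, limma adjusted p 0.209). For both, 4 of 5 PnocCre libraries exceeded every Wildtype library and PnocCre replicate 4 was the lowest of the 5. H2-Q5 had 281, 431, 163, 98.5 and 233 in PnocCre, against 96.3, 157, 128, 175 and 59.3 in Wildtype (0.90, SE 0.39, limma adjusted p 0.268). H2-T10 had 84.8, 203, 53.2, 28.4 and 60.1 in PnocCre, against 59.3, 15.1, 23.2, 31.5 and 25.6 in Wildtype (1.28, SE 0.48, limma adjusted p 0.217). Both genes overlapped between the groups. H2-T23, which encodes Qa-1, a ligand of the receptor CD94/NKG2A, averaged 759 ± 379 in PnocCre and 516 ± 130 in Wildtype (0.44, SE 0.31, limma adjusted p 0.462), and stood at 0.20 without PnocCre replicate 2. Among the others H2-T22 stood at 0.18, H2-Q6 at 0.70, H2-Q7 at 0.35, H2-T24 at 0.08 and H2-M9 at 0.02. Without PnocCre replicate 2 H2-Q7 stood at 0.05, H2-T24 at -0.10 and H2-M9 at -0.02. Without PnocCre replicate 4 H2-Q7 stood at 0.71, H2-Q6 at 1.07, H2-T24 at 0.28 and H2-M9 at -0.05. DESeq2 on all 10 libraries gave H2-M9 as -0.06.

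H2-Q10 went the other way. It encodes a secreted class I molecule best known from liver, and it was the third most abundant class I heavy chain here. It had 8765, 7392, 8730, 7722 and 6685 normalised counts in PnocCre, against 9484, 12124, 12539, 6670 and 11491 in Wildtype. Wildtype replicate 4 lay below all PnocCre libraries and the other 4 Wildtype libraries lay above them (log2 fold change -0.38, SE 0.17, limma adjusted p 0.283, DESeq2 adjusted p 0.177). Without Wildtype replicate 4 DESeq2 called it lower (log2 fold change -0.54, adjusted p 0.0131), against 0.422% of all genes called on that side. Leaving out the library with the lowest H2-Q10 value favours such a call. The share of H2-Q10 in all class I counts was 16.3% to 27.4% in PnocCre and 23.3% to 37.1% in Wildtype, while that of H2-K1 was 27.9% to 32.7% and 24.7% to 29.1%. The ratio of H2-Q10 to H2-K1 counts was 0.542 to 0.982 in PnocCre and 0.800 to 1.501 in Wildtype. The groups overlapped in each of these shares.

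PnocCre replicates 4 and 2 stood at the low and high ends of many class I genes. Of the 13 tested class I heavy chains 11 had their lowest PnocCre value in that library, as did 22 of all 29 tested members, where 22.5% of all tested genes did. PnocCre replicate 2 had the highest value of all 10 libraries for 8 of the 13, where it did for 18.6% of all tested genes. Without PnocCre replicate 4, 6 members did not overlap between the groups (B2m, H2-D1, H2-K1, H2-Q4, H2-M3 and Tap1), against 3.03% of all genes, the median of the class I heavy chains was 0.70 in place of 0.44, and DESeq2 called 12 members higher, against 2.92% of all genes called on the higher side. These were B2m, H2-K1, H2-D1, H2-Q4, H2-M3, H2-T10, H2-Q5, Tap1 and, on the class II side, H2-Aa, H2-Ab1, H2-DMb1 and Cd74. With limma 0 members passed without that library. Leaving out the library that was lowest for most members favours such counts, and the shares over all genes were not chosen in that way. Without PnocCre replicate 2 the class I median was 0.36, with 10 of 13 positive, and B2m was again the member without overlap (2.12% of all genes). It was also the 1 member that DESeq2 then called, against 1.17% of all genes on the higher side. PnocCre replicate 4 had the lowest summed macrophage markers of the PnocCre group (2533 normalised counts, against 3231 to 5012 in the other 4 and 2336 to 2956 in Wildtype) and high skeletal muscle markers (88141). PnocCre replicate 5 had more skeletal muscle marker counts (166714). Its B2m (14415), H2-D1 (17811) and H2-K1 (12334) counts lay above every Wildtype library. Its summed class II chains (3138) lay at the low end of the Wildtype range (3137 to 3842). The part of either marker list in the class I or class II values was not tested.

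On the class II side, the 9 chains summed to 6260, 11307, 4652, 2624 and 3138 normalised counts in PnocCre, against 3842, 3192, 3840, 3191 and 3137 in Wildtype. PnocCre replicates 1, 2 and 3 lay above every Wildtype library and replicate 4 below, and the 8 tested class II chains each had their highest value in PnocCre replicate 2, where 18.6% of all tested genes did. For H2-Oa, 1 of the 8, this was fixed in advance, because it passed the filter only through that library. All 8 had a positive log2 fold change, with a median of 0.61. Without PnocCre replicate 2 the median of the 7 still tested was 0.26, again all positive, against -0.01 over all genes. DESeq2 on all 10 libraries called 0 of the class II chains, and left H2-Ob, H2-DMb2 and H2-Eb2 without a p-value. Without PnocCre replicate 4 it called H2-Aa (adjusted p 0.0447), H2-Ab1 (0.0357), H2-DMb1 (0.04998) and the partner Cd74 (0.0420) higher. That library had the lowest class II sum of the PnocCre group, so leaving it out favours such calls.

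The I-A chains H2-Aa and H2-Ab1 and the I-E chain H2-Eb1 made up most of the class II counts. They were high and low in the same PnocCre libraries. No alpha chain of I-E is among the members, so these data do not say whether I-E reached the surface. H2-Aa (ENSMUSG00000036594, chromosome 17, 34501718 to 34506797), the alpha chain of I-A, had 1866, 3333, 1422, 797 and 920 normalised counts in PnocCre, against 1118, 904, 1151, 919 and 876 in Wildtype (log2 fold change 0.56, SE 0.32, limma adjusted p 0.378). H2-Ab1, its beta chain, had 1878, 2946, 1371, 697 and 870 in PnocCre, against 1107, 838, 980, 885 and 873 in Wildtype (0.54, SE 0.32, limma adjusted p 0.392). H2-Eb1, the beta chain of I-E, had 2108, 3174, 1577, 922 and 1074 in PnocCre, against 1368, 1233, 1475, 1197 and 1144 in Wildtype (0.32, SE 0.28, limma adjusted p 0.552). In each of the 3 genes PnocCre replicates 1, 2 and 3 exceeded all Wildtype libraries and replicate 4 was below all of them. For H2-Eb1 PnocCre replicate 5 (1074) was also below all Wildtype libraries. H2-Aa made up 29.3% to 30.6% of class II counts in PnocCre and 27.9% to 30.0% in Wildtype, and H2-Eb1 28.1% to 35.1% and 35.6% to 38.6%. The share of H2-Eb1 thus did not overlap between the groups, by a narrow margin (35.1% against 35.6%), while the shares of H2-Aa and H2-Ab1 overlapped. No share over all genes is available beside this. The H2-Eb1 share was lowest in PnocCre replicate 2, where H2-Ob made up 6.67% and H2-DMb2 3.27% of class II counts. Cd74 (chromosome 18, 60936920 to 60945724), the invariant chain, had 3654, 6907, 2747, 1577 and 1796 in PnocCre, against 2185, 1742, 2200, 1654 and 1881 in Wildtype (0.58, SE 0.33, limma adjusted p 0.375). The PnocCre libraries, though not the Wildtype ones, ranked in the same order as for H2-Aa, H2-Ab1 and H2-Eb1. Without PnocCre replicate 2 the log2 fold changes of H2-Aa, H2-Ab1, H2-Eb1 and Cd74 were 0.26, 0.26, 0.08 and 0.27.

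**Figure D3:**
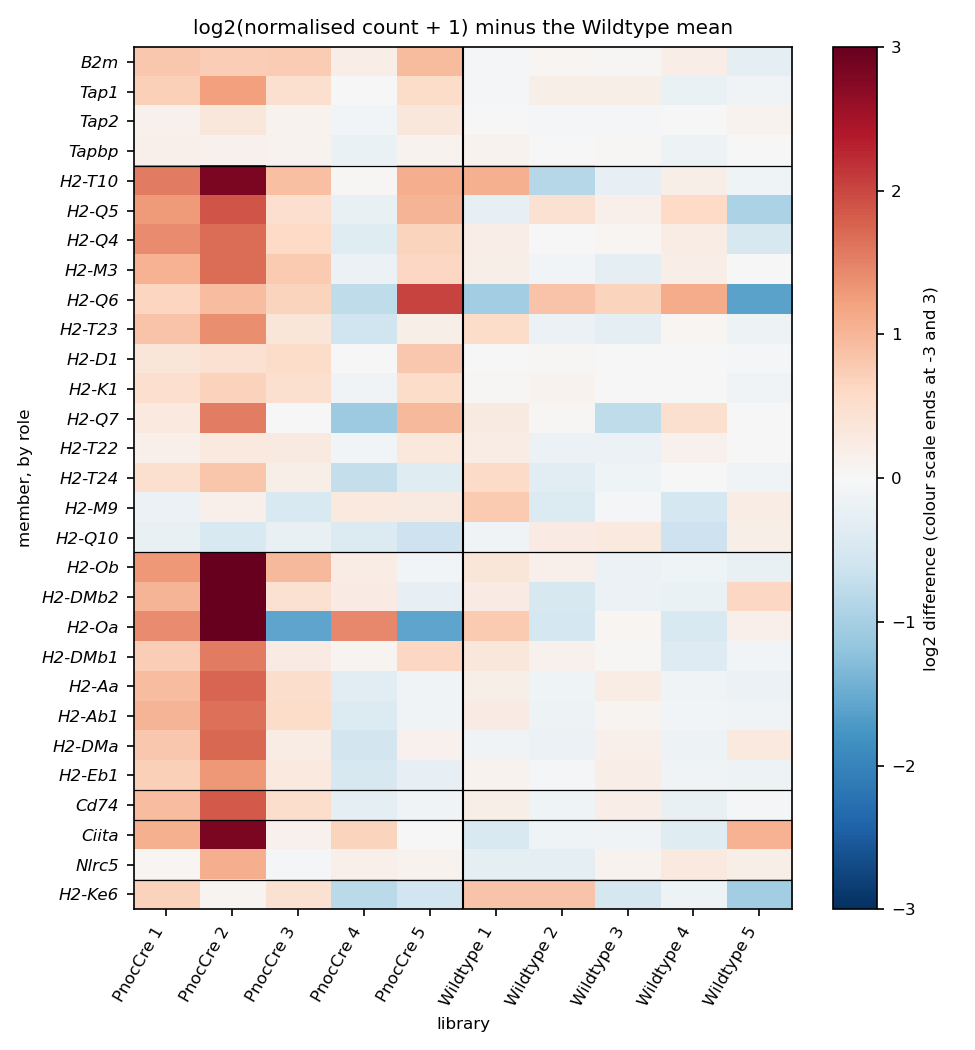
Log2(normalised count + 1) of the 29 tested MHC members in each library after subtraction of the Wildtype mean of the gene, in rows grouped by role and columns by library, with red for higher and blue for lower values. PnocCre replicate 2 has the strongest reds in the class II rows, and PnocCre replicate 4 is pale or blue for most rows.

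The peptide-exchange chains and the class II regulator split by how far PnocCre replicate 2 stood out. H2-DMa, the alpha chain of H2-DM, had 189, 356, 126, 73.1 and 118 normalised counts in PnocCre, against 99.6, 95.8, 120, 96.7 and 131 in Wildtype (log2 fold change 0.46, SE 0.34, limma adjusted p 0.483). H2-DMb1, a beta chain of H2-DM, had 138, 243, 96.5, 86.3 and 127 in PnocCre, against 103, 89.3, 83.3, 61.7 and 76.7 in Wildtype (0.65, SE 0.26, limma adjusted p 0.245). PnocCre replicate 2 exceeded the median of the other 4 PnocCre libraries 2.91-fold for H2-DMa and 2.18-fold for H2-DMb1, close to the 2.85-fold, 2.63-fold and 2.39-fold of H2-Aa, H2-Ab1 and H2-Eb1. H2-Ob, the beta chain of H2-O, an inhibitor of H2-DM known mainly from B cells, had 48.5, 754, 38.8, 22.3 and 18.02 in PnocCre, against 24.7, 21.5, 16.9, 17.5 and 16.3 in Wildtype. H2-DMb2, a second beta chain of H2-DM, had 23.4, 370, 15.3, 13.2 and 9.01 in PnocCre, against 13.2, 7.53, 9.49, 9.32 and 17.4 in Wildtype. The limma log2 fold changes were 1.53 for H2-Ob (SE 0.81, adjusted p 0.348) and 1.29 for H2-DMb2 (SE 0.82, adjusted p 0.421), from means of log values. The fold changes that DESeq2 fitted to the counts were larger, at log2 3.19 and 2.92. In PnocCre replicate 2 H2-Ob stood 24.7-fold and H2-DMb2 25.9-fold above the median of the other PnocCre libraries, beside 30.2-fold for the summed B cell markers and 39.7-fold for the summed T cell markers. H2-Oa, the alpha chain of H2-O, had 76.3 there, where the other PnocCre libraries had at most 7.11 and Wildtype libraries at most 4.12. H2-Eb2 had 54.5 there, where the other PnocCre libraries had at most 6.09 and Wildtype libraries at most 4.12.

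Ciita (chromosome 16, 10297923 to 10346282), the master regulator of class II genes, had 71.0, 242, 36.1, 52.8 and 33.0 normalised counts in PnocCre, against 23.9, 30.1, 30.6, 25.6 and 69.7 in Wildtype. PnocCre replicates 1 and 2 lay above all Wildtype libraries, but Wildtype replicate 5 reached the level of PnocCre replicate 1 (log2 fold change 0.94, SE 0.50, limma adjusted p 0.351, DESeq2 adjusted p 0.159). Its fold over the other PnocCre libraries in replicate 2 was 5.43. Without PnocCre replicate 2 the log2 fold changes were 0.60 for H2-Ob, 0.37 for H2-DMb2, 0.46 for Ciita, 0.42 for H2-DMb1 and 0.15 for H2-DMa, and 0 of them passed limma.

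The promoter windows of 4 class II chains are shown because H2-Eb1 and H2-Aa followed the moderate pattern, and H2-Ob and H2-DMb2 the strong excess in PnocCre replicate 2. They come from RefSeq in build GRCm38.p6. Capitals mark the same motifs, and also a shifted form of the X box chosen after these sequences were seen, which overlaps the X box core in H2-Eb1.
H2-Eb1, chr17:34305617-34305916, plus strand: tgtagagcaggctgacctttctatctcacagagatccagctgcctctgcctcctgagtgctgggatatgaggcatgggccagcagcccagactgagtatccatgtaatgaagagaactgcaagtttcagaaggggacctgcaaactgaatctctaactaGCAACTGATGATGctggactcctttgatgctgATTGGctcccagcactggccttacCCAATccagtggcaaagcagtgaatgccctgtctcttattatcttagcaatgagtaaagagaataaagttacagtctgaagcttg
H2-Aa, chr17:34287774-34288073, minus strand: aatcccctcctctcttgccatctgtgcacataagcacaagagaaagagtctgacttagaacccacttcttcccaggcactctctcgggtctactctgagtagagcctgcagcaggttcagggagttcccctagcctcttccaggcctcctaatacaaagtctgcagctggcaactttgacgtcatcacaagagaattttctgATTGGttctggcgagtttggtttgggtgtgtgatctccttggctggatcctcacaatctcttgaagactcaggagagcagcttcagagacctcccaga
H2-Ob, chr17:34238655-34238954, plus strand: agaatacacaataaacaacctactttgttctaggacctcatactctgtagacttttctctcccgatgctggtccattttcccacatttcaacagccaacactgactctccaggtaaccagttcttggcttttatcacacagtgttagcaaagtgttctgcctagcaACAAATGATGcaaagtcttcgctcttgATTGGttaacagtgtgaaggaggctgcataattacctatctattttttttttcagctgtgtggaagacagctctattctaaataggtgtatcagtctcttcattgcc
H2-DMb2, chr17:34144999-34145298, plus strand: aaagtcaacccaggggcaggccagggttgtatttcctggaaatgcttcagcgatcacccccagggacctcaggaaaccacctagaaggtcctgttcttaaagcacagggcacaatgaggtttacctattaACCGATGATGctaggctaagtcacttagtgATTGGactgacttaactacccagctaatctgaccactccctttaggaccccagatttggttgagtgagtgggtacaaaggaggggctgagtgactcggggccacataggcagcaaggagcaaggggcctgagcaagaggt
Each of the 4 windows held CCAAT on 1 strand or the other. The X box core lay in the windows of 11 of 27 members and in 2.97% of all windows, and of the 4 shown in H2-Eb1 only. The shifted form lay in those of 5 members (H2-DMb1, H2-DMb2, H2-Eb1, H2-Ob, H2-T23) and in 0.840% of all windows. Because the shifted form was chosen from the windows shown, its place in H2-Eb1, H2-Ob and H2-DMb2 was fixed in advance. It gives no information on the patterns of these genes.

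**Figure D4:**
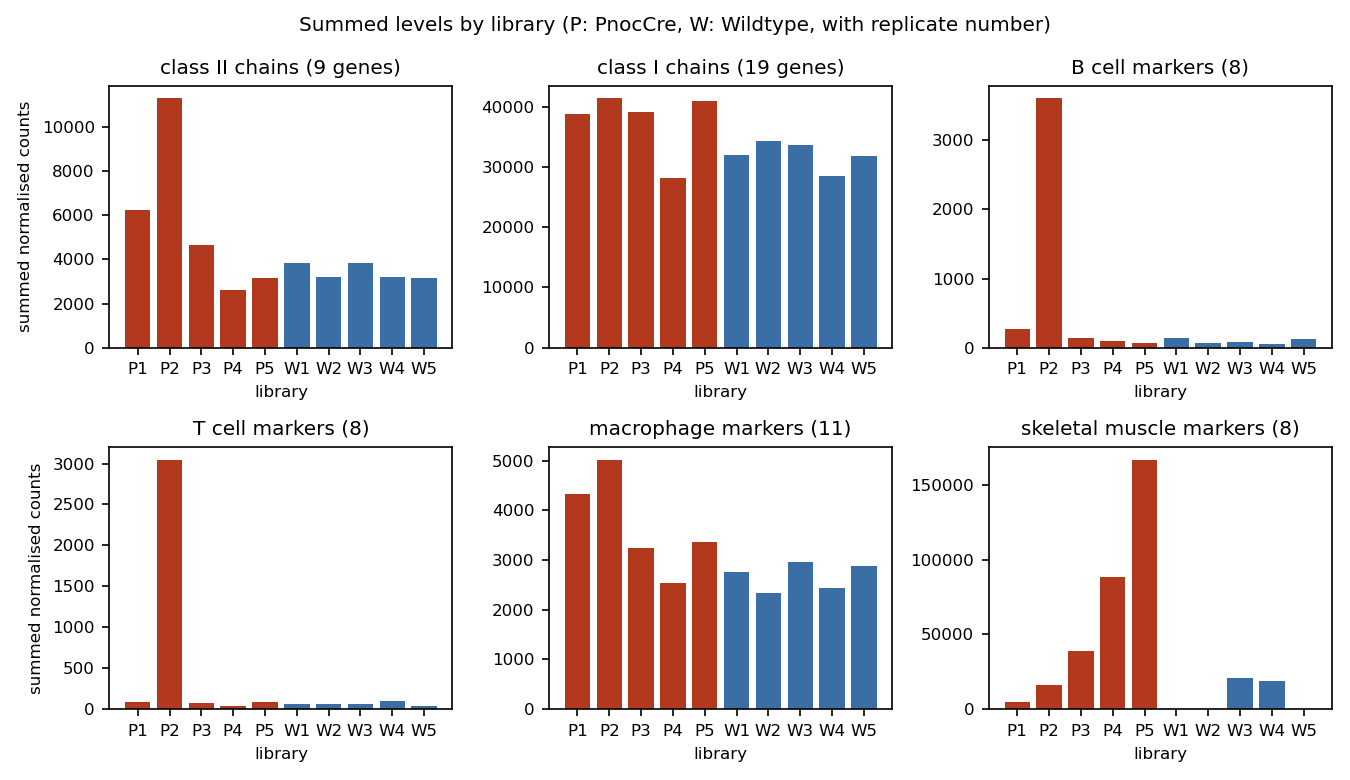
Summed normalised counts per library of the class II chains, the class I heavy chains and 4 marker lists, with PnocCre libraries (P1 to P5) left of Wildtype libraries (W1 to W5) and every axis starting at 0. The B and T cell markers are high in P2, where the class II sum is 11307, and the class I sum is lowest in P4 (28166).

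Markers of other antigen-presenting cells and of fibroblasts also had positive log2 fold changes, and those of brown adipocytes negative ones. The 11 macrophage markers summed to 4332, 5012, 3231, 2533 and 3354 normalised counts in PnocCre, against 2748, 2336, 2956, 2445 and 2870 in Wildtype. PnocCre replicates 1, 2, 3 and 5 lay above every Wildtype library and replicate 4 did not. Of these 11, 10 had a positive log2 fold change, with a median of 0.42, and DESeq2 called 3 higher, against 2.2% of all genes. Of the 5 dendritic cell markers tested 4 were positive, with a median of 0.81, above that of the class II chains. That median was the value of Itgax (limma adjusted p 0.372), and Ccr7 (1.26) was high in PnocCre replicate 2 only. All 8 dendritic cell markers summed to 566 to 1231 in PnocCre and 573 to 839 in Wildtype. Zbtb46, which endothelial cells also express, made up most of that sum (508 to 621 and 486 to 769). Defining markers at or near 0 in Wildtype were Flt3, a receptor of dendritic cell precursors, at 0 to 2.33 (4.06 to 12.7 in PnocCre), and Xcr1 of cross-presenting dendritic cells, at 0 to 5.27 (2.002 to 28.1). Neither Flt3 nor Xcr1 passed the filter on low values, so they were not tested. The 8 fibroblast markers summed to 13856 to 21043 in PnocCre and 8002 to 14479 in Wildtype, all 8 with a positive log2 fold change (median 0.77), and DESeq2 called 5 of them higher, against 2.2% of all genes. All 8 brown adipocyte markers had a negative log2 fold change (median -0.37), and DESeq2 called 2 of them lower, as it did 206 of the 15301 tested genes. Endothelial markers summed to 15753 to 31208 in PnocCre and 13905 to 27839 in Wildtype. DESeq2 called 0 of the endothelial and 0 of the tested dendritic cell markers. The part of these cells in the MHC values was not tested.

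Compared per length, as normalised counts per kilobase of gene model, B2m was the most abundant member (14161 in PnocCre and 8670 in Wildtype), followed by H2-D1 (5382 and 3913) and H2-K1 (3921 and 2882). H2-Q10 reached 1807 and 2406, and Cd74, the highest on the class II side, 1987 and 1151. H2-Eb1 had 911 and 660, H2-Ab1 605 and 365, and H2-Aa 439 and 262. The regulators were far lower, with Nlrc5 at 54.6 and 43.8 and Ciita at 9.11 and 3.77. H2-Ke6, which encodes a hydroxysteroid dehydrogenase, averaged 29.0 ± 12.7 normalised counts in PnocCre and 31.4 ± 17.8 in Wildtype (log2 fold change -0.03, limma adjusted p 0.973). The 7 members left untested were H2-Eb2, H2-M2, H2-M5, H2-M11, H2-Q1, H2-Q2 and H2-T3. H2-M2 had 25.4 normalised counts in PnocCre replicate 2 and at most 2.33 in each other library, and H2-M5 and H2-M11 at most 6.36 in any library. H2-Q1 averaged 0.923 ± 1.06 normalised counts in PnocCre and 4.38 ± 3.55 in Wildtype. H2-Q2 and H2-T3 were listed at 0 in all 5 Wildtype libraries, where 3 reads, the limit that a count of 0 allows, would be 2.47 to 3.49 normalised counts, counting error only. In PnocCre replicate 2 they had 4.54 and 1.82.

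Genes of the wider antigen-presentation pathway had medians between -0.01 and 0.18 by list, with higher and lower here standing for the sign of the log2 fold change. Of 12 class I proteasome and loading genes 6 were higher and 6 lower (median -0.01). Psmb8, a subunit of the immunoproteasome, averaged 419 normalised counts (214 to 724) in PnocCre and 208 (146 to 283) in Wildtype (log2 fold change 0.93, SE 0.28, limma adjusted p 0.167, DESeq2 adjusted p 0.0265). The loading chaperones Calr (3404 ± 549 and 4347 ± 331, -0.37) and Canx (-0.25) were lower, with limma adjusted p-values of 0.194 and 0.243. Of 15 class II processing genes and cofactors 9 were higher (median 0.13), with the protease genes Ctsd at -0.34 and Lgmn at -0.32 and the ubiquitin ligase gene Marchf1 at 1.56, whose PnocCre values ran from 9.01 to 112 and Wildtype values from 2.33 to 11.8. Of 13 interferon signalling genes 7 were higher (median 0.03). Ifngr1, a chain of the interferon-gamma receptor, had 1897 ± 156 in PnocCre and 1497 ± 72.7 in Wildtype without overlap (0.34, SE 0.09, limma adjusted p 0.136, DESeq2 adjusted p 0.0134), while Ifnar2 stood at -0.27 and Irf8 at 1.05. Of 7 costimulatory and CD1 genes tested 5 were higher (median 0.18), with Cd86 at 0.96, Cd80 at 1.12 and Icosl at 0.69. With limma 0 genes of these 4 lists passed, and DESeq2 called Psmb8 and Ifngr1, both higher, against 2.2% of all genes called on that side. Ifngr1 was the 1 gene of the interferon list without overlap on the higher side, against 1.79% of all genes.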

How the data were processed

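PolyA RNA of 10 strand-specific libraries (dUTP method, per the labels' protocols) was aligned and counted with HISAT2 2.0.5 and featureCounts 1.5.0-p3 on GRCm39 and compared with DESeq2, per the submitters' processing notes. The sources used here give neither the annotation release nor the strand setting. The deposited values are a signal, read counts divided by 1 size factor per library, and whole reads were recovered from them (100% of values within 0.01 reads of a whole number in every library). The authors' log2 fold changes, p-values and gene lengths are in the same deposited table. DESeq2 run here gave B2m and H2-D1 as the members under 0.05, as in the authors' deposited table. The design takes limma-trend with robust moderation on log2(value + 1), for genes with a mean of at least 10, as the test for normalised values, with a threshold of 0.05 on Benjamini-Hochberg adjusted p over 15301 genes, 2-sided. A log2 fold change on this scale understates the change of low genes. edgeR (with TMM factors) and DESeq2 on the recovered reads were alternatives, as were TMM scaling, a pseudocount of 5, minimum means of 0 and 50, library weights, and each library left out. DESeq2 with each library left out was added after the data were seen. Replicate numbers only name the libraries. Genes given with all values are 14 set by name and the 6 other members with the smallest limma p. H2-DMb2, H2-Oa, H2-Eb2 and the marker genes were named after their values were seen. Members and lists were chosen with earlier results of these data known. The tests were tested on simulated data. R 4.3.3 was used with DESeq2 1.42.0, edgeR 4.0.16 and limma 3.58.1. Promoter windows are from RefSeq.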

Additional observations from a re-analysis of the deposited data

Results flagged for a closer look

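In 62 groups of 5 libraries (29 members and 2 summed levels in each genotype), 8 had a highest or lowest library whose gap to its neighbour took more than 0.71 of the whole range. For normally distributed values chance gives about 1 in 20. Here the counts were not log-transformed, the genes share the same libraries and the summed levels add up members. The number of flagged groups is therefore not a test against that rate. Of these 8, 5 were high values of PnocCre replicate 2, which also had the most B and T cell marker counts. H2-Oa, 1 of these 5, passed the filter only through that library. The gap was 0.959 of the range for H2-Ob (754 normalised counts), 0.960 for H2-DMb2 (370), 0.907 for H2-Oa (76.3), 0.874 for Nlrc5 (784) and 0.818 for Ciita (242). PnocCre replicate 4 was the low library for Tapbp (0.811 of the range, 2367 normalised counts) and for the summed class I heavy chains (0.803, 28166 normalised counts). Wildtype replicate 5 was the high library for Ciita in its group (0.854, 69.7 normalised counts).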

How the results depend on the processing

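Over all genes limma called 0, DESeq2 575 and limma with library weights 53, and of the members DESeq2 called 2 and the other alternatives run on all 10 libraries 0. With 1 library left out, limma called 0 to 1 genes (the 1 without PnocCre replicate 3) and 0 members, the class I median ran from 0.36 (without PnocCre replicate 2) to 0.70 (without PnocCre replicate 4), and the class II median from 0.26 to 0.78 (without the same 2 libraries). With DESeq2 the number of genes ran from 216 (without Wildtype replicate 2) to 745 (without PnocCre replicate 4), and was 439, 292, 578 and 655 without PnocCre replicate 1, 2, 3 and 5, and 532, 409, 273 and 241 without Wildtype replicate 1, 3, 4 and 5. DESeq2 called 12 members without PnocCre replicate 4, 2 without Wildtype replicate 1 or 4 and 1 without each of the others, and B2m in every such run. The cause was not tested. No log2 fold change of the 20 members given with all values changed sign in the alternatives run. Under other scalings, pseudocounts, filters and tests on all 10 libraries the class I median was 0.41 to 0.58 and the class II median 0.46 to 0.77. No paired analysis was possible because the labels give the groups no shared replicate numbers. Depth limits the members with a mean under 10 normalised counts, which were not tested.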
